A study of Mus musculus with 16 samples.

Results

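The genes described here are 36 of the 55426 genes in the table, chosen by name as genes that T cells, B cells, antibody-secreting plasma cells and natural killer (NK) cells are known for. They are 1 gene of all white blood cells (Ptprc), 7 of the T-cell receptor and its CD3 partners, 5 of the T-cell surface, 2 receptor kinases, 4 of costimulation and regulation, 3 cytokine receptors, 3 of B cells, 3 of antibodies, and 8 of NK and cytotoxic cells. They were followed in 16 poly(A) RNA libraries of ovaries from female C57BL/6NHsd mice, an inbred strain, 1 from each animal, in 4 groups of 4. Injections began at 9 to 10 weeks of age in all mice. On T mice had weekly injections under the skin of 0.9 mg testosterone enanthate, a slowly released ester, for 6 weeks, and their ovaries were taken at 16 weeks of age. Control OT mice of the same age had sesame oil alone. Post T mice had the same 6 weeks of testosterone, were then left without it until their cycles returned, and were taken after 4 cycles at 24 to 28 weeks of age. Control PT mice were their age-matched oil controls. Every ovary, control or treated, was taken in diestrus, a phase of the estrous cycle.

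T cells recognise antigen through a receptor whose chains (Trac, Trbc2, and Trdc in the gamma-delta lineage) signal through the CD3 chains and the zeta chain Cd247. The kinase Lck, held by the co-receptors Cd4 or Cd8a, starts that signal and Zap70 carries it on. B cells use membrane antibody with the signalling pair Cd79a and Cd79b, and plasma cells secrete antibody, whose polymeric forms hold the joining chain Jchain. NK cells and killer T cells carry granules with perforin (Prf1) and granzymes (Gzma, Gzmb). The ovary holds lymphocytes among many more stromal, follicular and luteal cells, and leukocytes enter and leave it through the cycle.

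Each library held 26598055 to 52659637 counts, and a gene is given in CPM, which scales counts to library size, or, where genes are set beside each other, in TPM, which also allows for gene length. Differences were tested in 1 edgeR fit of all libraries, and a gene is said to have passed, risen or fallen where its edgeR adjusted p was under 0.05. The filter on low counts kept 33 of the 36. Cd8b1 (a co-receptor chain of killer T cells), Ctla4 (an inhibitory receptor) and Foxp3 (the regulatory T-cell factor) did not pass it, with 0 to 9 counts in a library. Cd8a and Gzma were kept although under 4 libraries outside the Post T group reached the level of the filter. The other 31 reached it without needing that group. By TPM the genes are rare in the ovary. In Control OT, 15 of the 36 averaged at least 1 TPM and 1, Igkc, at least 10. Igkc, the constant part of the kappa light chain, ranked first in each of the 4 groups, at 16.6 ± 4.74 TPM in Control OT and 55.4 ± 3.59 in Control PT (SD, n = 4). In Post T, Il7r (17.8 ± 3.17) and Ptprc (14.2 ± 1.48) followed it, with ranges that overlapped that of Igkc.

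Markers of ovary and of other cells were read in the same libraries. The 6 granulosa and oocyte markers, among them Amh and Inha, summed to 1710 to 5390 TPM over the 16 libraries, and none of them passed in either treatment comparison. For scale, 4.24% of all genes tested rose and 5.03% fell on testosterone, and 7.49% rose and 4.81% fell after it. Of 13 macrophage markers, 5 rose and 1 fell on testosterone, and 9 rose and 1 fell after it. Their summed level was 416 to 582 TPM in Control OT, 703 to 1320 in On T, 630 to 1400 in Control PT and 4620 to 6380 in Post T. Such a sum gives most weight to the most abundant markers. The median log2 fold change of the 13 was 0.13 on testosterone (from -0.83 to 2.68) and 1.12 after it (from -0.86 to 4.12). No marker of 8 for dendritic cells, 4 tested for plasmacytoid dendritic cells, 3 tested for mast cells, 5 for red blood cells or 4 tested for fat cells passed in either comparison. Within groups the fat cell gene Adipoq was uneven. It held 53 and 246 counts in Control OT libraries 2 and 3, 60 in On T 2, 23 and 65 in Control PT 2 and 3, and 99 in Post T 2. The other libraries held 0 to 13. Of 3 neutrophil markers tested, 2 rose after testosterone and 0 on it, although Ngp had no count in Post T and Ly6g and Camp had none in On T. Of 3 lymph node stroma markers tested, 1 rose on testosterone and 2 rose after it. Of 5 luteal markers 4 fell on testosterone and 3 fell after it, and 1 of 3 oviduct markers tested fell in each.

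Cd3g, Cd3d and Cd3e encode chains of 1 complex and lie beside each other on chromosome 9 of GRCm38, and their levels are the core of what follows. Cd3g (44969572 to 44980431, minus strand) and Cd3d (44981786 to 44987339, plus strand) point away from each other across 1354 bases, and Cd3e (44998740 to 45009627, minus strand) lies 11.4 kb beyond Cd3d. Their promoter windows from RefSeq (GRCm38.p6, 250 bases before to 50 after the start, 5′ to 3′ on the gene's strand) are shown with that of Il7r, the member with the largest change. They are chr9:44980382-44980681 (minus) for Cd3g, chr9:44981536-44981835 (plus) for Cd3d, chr9:45009562-45009861 (minus) for Cd3e and chr15:9529827-9530126 (minus) for Il7r. Capitals mark GGAA, the core bound by ETS factors, read on either strand and so written GGAA or TTCC.
Cd3g: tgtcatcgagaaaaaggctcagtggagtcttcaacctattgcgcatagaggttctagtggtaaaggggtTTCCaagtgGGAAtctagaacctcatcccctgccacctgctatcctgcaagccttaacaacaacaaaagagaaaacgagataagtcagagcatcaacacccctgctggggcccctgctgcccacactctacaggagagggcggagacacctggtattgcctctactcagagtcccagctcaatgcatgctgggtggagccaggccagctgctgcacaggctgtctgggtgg
Cd3d: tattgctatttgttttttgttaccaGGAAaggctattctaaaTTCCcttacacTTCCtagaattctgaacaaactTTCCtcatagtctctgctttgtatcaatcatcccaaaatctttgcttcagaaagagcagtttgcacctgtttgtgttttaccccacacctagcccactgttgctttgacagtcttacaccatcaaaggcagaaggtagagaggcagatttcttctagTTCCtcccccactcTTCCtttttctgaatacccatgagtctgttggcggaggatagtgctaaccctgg
Cd3e: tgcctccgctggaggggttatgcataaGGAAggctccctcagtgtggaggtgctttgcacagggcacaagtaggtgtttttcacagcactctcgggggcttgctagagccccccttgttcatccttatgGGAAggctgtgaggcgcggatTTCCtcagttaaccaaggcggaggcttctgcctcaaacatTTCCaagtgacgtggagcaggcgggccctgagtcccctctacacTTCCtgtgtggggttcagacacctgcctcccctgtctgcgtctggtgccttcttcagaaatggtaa
Il7r: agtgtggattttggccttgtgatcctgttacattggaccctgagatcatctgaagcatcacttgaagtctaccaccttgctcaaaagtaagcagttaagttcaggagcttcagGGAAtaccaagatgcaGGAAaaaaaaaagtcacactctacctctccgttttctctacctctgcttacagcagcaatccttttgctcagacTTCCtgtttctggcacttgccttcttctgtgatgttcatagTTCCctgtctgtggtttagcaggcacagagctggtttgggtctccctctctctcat
The core was found 2 times in Cd3g, 6 times in Cd3d, 5 times in Cd3e and 4 times in Il7r. It is common, since 95.9% of 27025 RefSeq promoters of the same length hold it, with a mean of 3.52 matches. The RUNX motif TGTGGT, also read on both strands, was found 1 time in Il7r and in none of the 3 CD3 windows, against 16.9% of all promoters. Such matches describe letters, not bound sites. RefSeq windows were at hand for 22 of the 36 genes.

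After testosterone, 5 of the 7 genes of the T-cell receptor complex were higher than in age-matched controls, by about 2-fold, and Cd3g and Trdc did not pass. None of the 3 chosen B-cell genes passed, and the difference between the T-cell and B-cell genes was not tested. Of the 33 genes tested, 10 rose and 0 fell, where 7.49% of all genes tested rose and 4.81% fell (12.3% in either direction). The 10 were Ptprc, Cd3d, Cd3e, Cd247, Trac, Trbc2, Cd5, Cd4, Il7r and Nkg7. The median log2 fold change was 0.69 over the 33 genes and -0.01 over all genes tested. In 13 genes every Post T library was above every Control PT library, where 9.62% of all genes tested showed this, and in 0 was it below, where 6.92% did. None passed as lower by edgeR, DESeq2 or limma, with 2 lower at an unadjusted p under 0.05. These libraries are of whole ovary, so more cells of a type and more RNA per cell cannot be told apart.

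**Figure D1:**
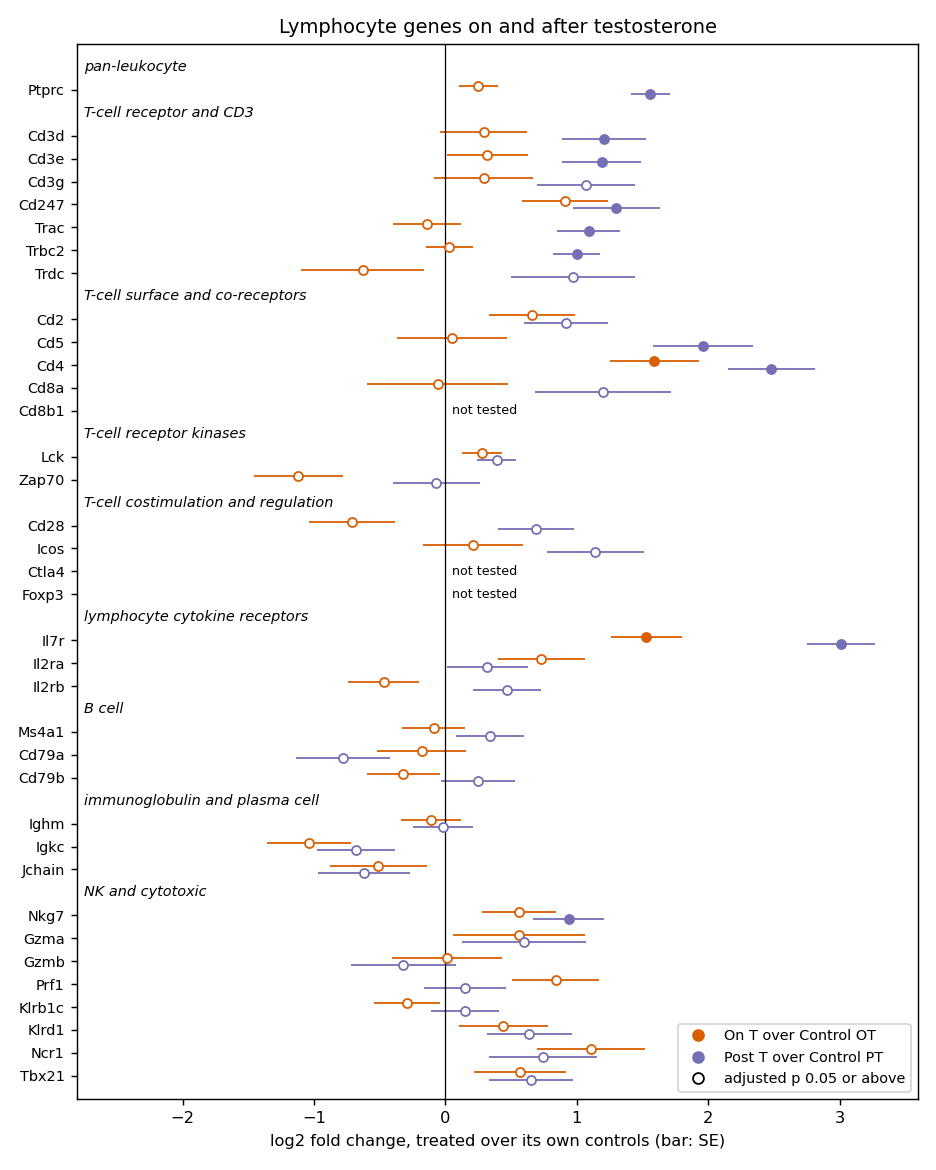
Log2 fold change of each of the 36 genes, grouped by role, in On T over Control OT (orange) and Post T over Control PT (purple). Points are edgeR estimates from 4 against 4 libraries, bars are 1 SE, filled points have an adjusted p under 0.05, and 3 genes with too few counts were not tested. Filled points on the right are 10 for Post T, led by Il7r at 3.01, and 2 for On T, and there are no filled points left of 0.

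Of the 7 genes of the receptor and CD3, 5 rose after testosterone, and all 7 estimates lay between 0.97 and 1.3 on the log2 scale. Cd3e, the epsilon chain that every CD3 pair contains, was at 2.31, 1.93, 2.41 and 1.78 CPM in the 4 Post T libraries and at 0.857, 0.874, 1.24 and 0.713 in Control PT. The lowest Post T library was above the highest control, and the fold was 2.28 (log2 1.19, SE 0.30, adjusted p = 0.0129 in edgeR). Cd3d, the delta chain, was at 1.94, 1.87, 1.49 and 1.56 CPM against 0.896, 0.749, 0.770 and 0.566. Those ranges did not overlap either (log2 1.21, SE 0.32, adjusted p = 0.0184 in edgeR). Both calls needed Control PT library 4, and without it both missed the threshold, at log2 1.09 and edgeR adjusted p = 0.0694 for Cd3d and log2 1.08 and adjusted p = 0.0523 for Cd3e. Cd3g, the gamma chain, was at 3.00, 2.53, 3.33 and 2.57 CPM against 1.56, 1.22, 1.72 and 0.959. Its ranges did not overlap, yet it did not pass (log2 1.07, SE 0.37, adjusted p = 0.0718 in edgeR), while DESeq2 gave an adjusted p of 0.032.

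The constant genes of the receptor itself had estimates of the same size. Trac, the alpha chain constant gene (chromosome 14, 54220521 to 54224206), was at 1.97, 1.61, 2.45 and 1.40 CPM in Post T and at 0.740, 1.09, 0.681 and 0.934 in Control PT (log2 1.09, SE 0.24, adjusted p = 0.00535 in edgeR). Trbc2, a beta chain constant gene (chromosome 6, 41546730 to 41548352), was at 3.27, 2.88, 2.78 and 2.48 CPM against 1.71, 1.53, 1.27 and 1.20 (log2 1.00, SE 0.18, adjusted p = 0.000807 in edgeR). Both genes were higher in 4 of 4 Post T libraries than in any control. The Trac call was lost with limma on log2(TPM + 0.1) (adjusted p = 0.0641), and that of Cd3d likewise (adjusted p = 0.076). Of the 150-base windows of Trbc2 transcripts, 20.3% occur unchanged in Trbc1, the other beta constant gene, so reads could have been shared out wrongly among the pair. Trbc1 also rose (log2 1.14, SE 0.27, adjusted p = 0.00824 in edgeR). Trdc, the delta constant gene of gamma-delta T cells, spread more, from 1.22 to 2.41 CPM in Post T and from 0.468 to 1.98 in Control PT. It did not pass (log2 0.97, SE 0.47, adjusted p = 0.235 in edgeR) but did so without Control PT library 3 (log2 1.55, adjusted p = 0.0498 in edgeR).

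Cd247, the zeta chain, rose too, from 0.740, 0.468, 1.21 and 0.836 CPM to 2.24, 1.84, 2.58 and 1.42 (log2 1.3, SE 0.33, adjusted p = 0.0146 in edgeR). Of its exon bases, 56.4% overlap Pou2f1 on the opposite strand, and whether the counting used strand is not given in the sources used here. Pou2f1 was at 25.0 to 37.3 CPM in Control PT and 26.7 to 38.5 in Post T, and did not pass (log2 -0.04, SE 0.13, adjusted p = 0.906 in edgeR). Summed over the 7 receptor and CD3 genes, the level was 10.4 to 13.1 TPM in Control PT and 20.8 to 26.3 in Post T. It was 7.46 to 13.0 in Control OT and 7.51 to 12.3 in On T, so the Post T libraries stood above the other 12.

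**Figure D2:**
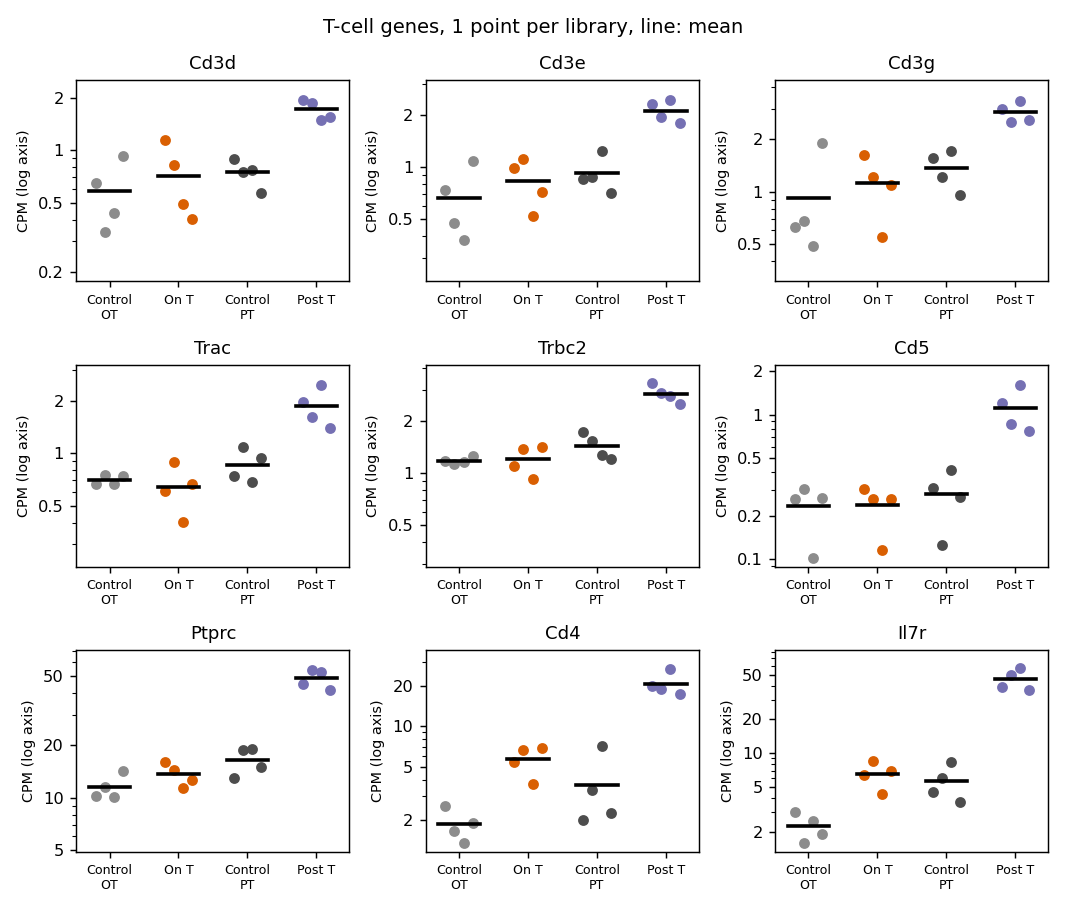
CPM on a log axis of 9 T-cell genes in each library, by group (4 libraries per group, line at the mean). In Cd3d, Cd3e, Cd3g, Trac, Trbc2 and Cd5 the Post T libraries lie above all others while On T libraries lie among the controls, and in Cd4 and Il7r the On T libraries also lie above Control OT.

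The variable segments that make receptors diverse gave a reading outside the chosen genes. The table lists 170 T-cell receptor V segments, and their summed level was 1.48, 1.72, 1.60 and 1.49 CPM in the 4 Post T libraries. The other 12 libraries lay between 0.318 and 1.03 CPM, below all Post T libraries. Segments with at least 1 count numbered 21 to 26 in Post T, 9 to 12 in Control PT, 5 to 17 in On T and 9 to 15 in Control OT. These are sparse values, from 11 to 66 counts in a library. Trdv4, a delta-chain segment named after its values were seen, held the most counts in each Post T library, with 18.3% to 30.3% of the V counts there, and in 6 of the other 12 it did so too.

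**Figure D3:**
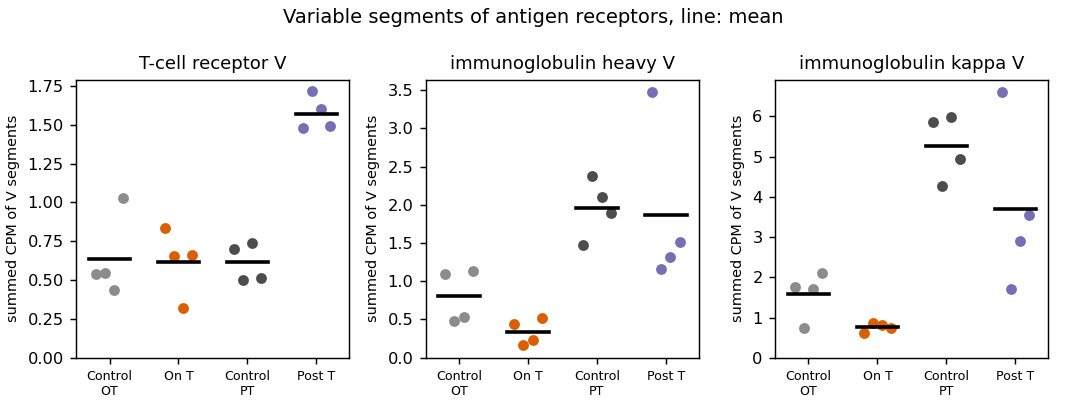
Summed CPM of T-cell receptor, antibody heavy-chain and kappa-chain variable segments in each library, by group (4 libraries per group, line at the mean). T-cell receptor segments are highest in the 4 Post T libraries (1.48 to 1.72), whereas kappa segments are higher in Control PT (4.28 to 5.98) than in Control OT and On T and spread widely in Post T.

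Among the other T-cell surface genes, Cd5, which tunes receptor signals and marks T cells and B-1 cells, had the largest estimate after Cd4. It was at 1.20, 0.862, 1.60 and 0.767 CPM in Post T and at 0.312, 0.125, 0.415 and 0.271 in Control PT, with no overlap (log2 1.96, SE 0.38, adjusted p = 0.0017 in edgeR). Cd2, an adhesion molecule of T and NK cells, was at 0.815 to 1.37 CPM against 0.369 to 0.662 and did not pass although the ranges did not overlap (log2 0.92, SE 0.32, adjusted p = 0.0722 in edgeR). Cd8a, the co-receptor of killer T cells, held 6 to 24 counts in a Post T library and 1 to 11 in a Control PT library and did not pass (log2 1.20, SE 0.52, adjusted p = 0.17 in edgeR). Cd8b1 held 2 to 9 counts in Post T and 2 to 5 in Control PT, at which no difference was detectable.

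Cd4, Il7r and Ptprc rose with larger estimates than the receptor genes. Il7r, the interleukin-7 receptor chain that naive and memory T cells and innate lymphoid cells depend on (chromosome 15, 9505788 to 9530176), was at 39.1, 49.5, 57.8 and 36.6 CPM in Post T. In Control PT it was at 4.56, 6.06, 8.44 and 3.66 and the groups lay far apart. The fold was 8.04 (log2 3.01, SE 0.26, adjusted p = 8.03e-07 in edgeR). Cd4 marks helper T cells, and some mouse macrophages and dendritic cells carry it too. The gene (chromosome 6, 124864692 to 124888221) was at 19.8, 18.8, 26.5 and 17.5 CPM in Post T. In Control PT it was at 1.99, 3.34, 7.11 and 2.24 (log2 2.48, SE 0.33, adjusted p = 6.13e-05 in edgeR). Ptprc, the phosphatase CD45 of nearly all white blood cells, went from 12.9, 18.7, 19.0 and 15.0 CPM to 45.0, 54.0, 52.9 and 41.5 (log2 1.56, SE 0.15, adjusted p = 2.32e-06 in edgeR). In all 3 genes the groups did not overlap.

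Set against Cd3e within each library, Cd4 and Il7r were higher in Post T than in Control PT with no overlap, which was not tested. There were 8.55 to 11.0 Cd4 counts per Cd3e count in Post T and 2.32 to 5.71 in Control PT. For Il7r the ratio was 16.9 to 25.6 in Post T and 5.14 to 6.93 in Control PT. On testosterone the Cd4 to Cd3e ratio was 5.46 to 9.48, against 1.76 to 3.53 in Control OT. Macrophage markers moved beside them. Cd68, a lysosomal membrane protein that macrophages are known for, was at 128 to 222 CPM in Post T, 21.8 to 34.9 in Control PT, 22.1 to 42.9 in On T and 10.7 to 18.2 in Control OT. Cd4 counts per Cd68 count were 0.120 to 0.137 in Post T and 0.0873 to 0.204 in Control PT, which overlap, and 0.154 to 0.185 in On T against 0.0773 to 0.156 in Control OT. Il7r counts per Cd68 count were 0.261 to 0.321 in Post T, above the 0.168 to 0.242 of Control PT. Cd3e counts per Cd68 count were 0.0109 to 0.0158 in Post T, below the 0.0323 to 0.0377 of Control PT. These ratios hold for Cd68 only, since macrophage markers did not move alike. Of the 13 markers, 9 rose and 1 fell after testosterone, with a median log2 fold change of 1.12 (from -0.86 to 4.12). Adgre1 was at 22.2 to 23.4 CPM in Post T and 13.1 to 23.3 in Control PT, and C1qa at 60.1 to 86.8 against 40.0 to 71.5. Csf1r was at 70.6 to 108 CPM against 35.1 to 52.9, while Cx3cr1 was lower, at 6.05 to 8.18 against 9.71 to 14.9. Ratios to these markers were not taken. The part of the macrophage signal in the Cd4, Il7r and Ptprc results was not tested. Control PT library 3 was the highest of its group for Cd4, Il7r, Ptprc and Cd68, and without it Cd4 was higher by 3.05 on the log2 scale.

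**Figure D4:**
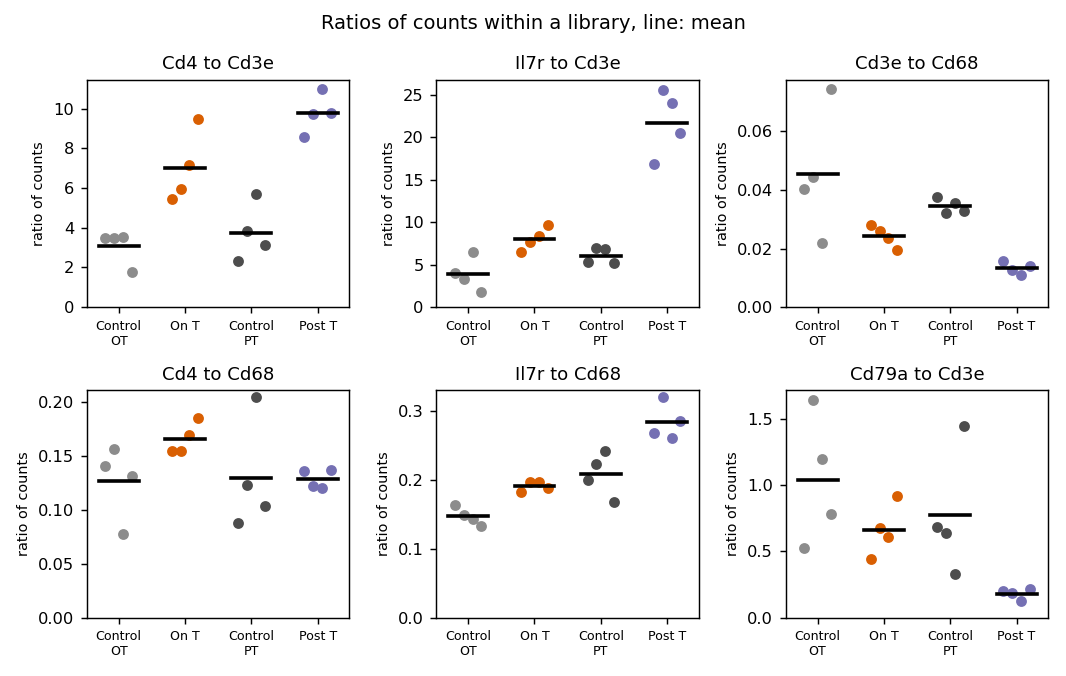
Ratios of counts of 2 genes within each library, by group (4 libraries per group, line at the mean). Il7r per Cd3e is highest in Post T, Cd4 per Cd3e is above its controls in both treated groups, Cd3e per Cd68 and Cd79a per Cd3e are lowest in Post T, and Cd4 per Cd68 overlaps between Post T (0.120 to 0.137) and Control PT (0.0873 to 0.204).

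None of the kinases and costimulatory receptors of T cells passed after testosterone. Lck was at 4.94 to 6.24 CPM in Post T and 3.52 to 4.60 in Control PT (log2 0.39, SE 0.15, adjusted p = 0.115 in edgeR). Those ranges did not overlap, but the difference was small and did not pass. Per Cd3e count there were 2.13 to 2.77 Lck counts in Post T and 2.83 to 6.21 in Control PT, ranges that do not overlap. Zap70 was at 1.65 to 2.75 CPM in Post T and 1.62 to 3.61 in Control PT (log2 -0.07, SE 0.33, adjusted p = 0.944 in edgeR). Cd28, the main costimulatory receptor, was at 2.97, 3.75, 3.02 and 3.52 CPM against 1.36, 3.25, 2.04 and 1.55 and did not pass (log2 0.69, SE 0.29, adjusted p = 0.158 in edgeR). It passed without Control PT library 2, which overlapped Post T (log2 1.01, adjusted p = 0.0282 in edgeR). Icos, a costimulatory receptor of activated T cells, was at 0.903 to 1.15 CPM against 0.326 to 0.623, with no overlap (log2 1.14, SE 0.37, adjusted p = 0.0561 in edgeR). It passed without Control PT library 1 (log2 1.34, adjusted p = 0.0486 in edgeR) and with DESeq2 (adjusted p = 0.0323). Ctla4 held 1 to 8 counts in a Post T library and 0 to 5 in Control PT, and Foxp3 held 1 to 8 and 1 to 6, at which no difference was detectable. The interleukin-2 receptor chains Il2ra (1.20 to 1.53 CPM against 0.623 to 1.81) and Il2rb (5.80 to 8.77 against 4.52 to 5.98) did not pass, at log2 0.32 (SE 0.31) and 0.47 (SE 0.26).

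During testosterone treatment none of the 7 receptor and CD3 genes passed, while Cd4 and Il7r were higher. Of the 33 genes tested, 2 rose and 0 fell, where 4.24% of all genes tested rose and 5.03% fell (9.27% in either direction). In 3 genes (Cd4, Il7r and Il2ra) every On T library was above every Control OT library, where 7.22% of all genes tested showed this, and in 0 below, where 7.92% did. The median log2 fold change was 0.21, against -0.01 over all genes. At an unadjusted p under 0.05, 6 were higher and 3 lower. By DESeq2 3 were higher and 2 lower, and by limma on log2(TPM + 1) 1 was higher and 0 lower. The share of risers is therefore near that of all genes, and the result here rests on the 2 genes themselves.

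Il7r was at 6.44, 8.49, 4.37 and 6.99 CPM on testosterone and at 2.98, 1.59, 2.50 and 1.92 in Control OT, with no overlap (log2 1.53, SE 0.27, adjusted p = 0.00161 in edgeR). Cd4 was at 5.41, 6.62, 3.73 and 6.85 CPM against 2.55, 1.66, 1.35 and 1.90, again with no overlap (log2 1.59, SE 0.34, adjusted p = 0.00662 in edgeR). The Cd4 call was lost on the deposited TPM, where limma gave log2(TPM + 1) 0.63 and an adjusted p of 0.144. Of 13 macrophage markers 5 rose in the same libraries, among them Cd68 (log2 1.17, SE 0.22, adjusted p = 0.00294 in edgeR) and Itgax. Another 1 fell, and the median log2 fold change of the 13 was 0.13. The part of the macrophage signal in the 2 results was not tested. Cd3e was at 0.990, 1.11, 0.520 and 0.722 CPM on testosterone and 0.734, 0.475, 0.383 and 1.08 in Control OT, ranges that overlap (log2 0.32, SE 0.31, 95% interval -0.29 to 0.93, adjusted p = 0.605 in edgeR). Trbc2 (log2 0.03, 95% interval -0.33 to 0.39) and Trac (log2 -0.14, 95% interval -0.64 to 0.36) had the smallest errors of the receptor genes, and their intervals exclude the 2-fold rise seen after testosterone.

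Ptprc did not pass on testosterone (11.3 to 16.0 CPM against 10.1 to 14.3, log2 0.25, SE 0.15, adjusted p = 0.377 in edgeR). Zap70 was the lowest estimate of the 33, at 0.954 to 1.41 CPM against 1.41 to 4.48 (log2 -1.12, SE 0.34, adjusted p = 0.0503 in edgeR). It was past the threshold under 6 alternatives, among them DESeq2 (adjusted p = 0.0164) and the fits without Control OT library 1 or 3 (log2 -1.25 and -1.32). Cd247 was at 1.13 to 1.79 CPM against 0.358 to 1.21 (log2 0.91, SE 0.33, edgeR adjusted p = 0.106, and 0.0496 by DESeq2). Cd28 was at 0.289 to 0.753 CPM against 0.711 to 1.12 (log2 -0.71, SE 0.33, adjusted p = 0.218 in edgeR). Il2ra was at 0.607 to 1.57 CPM against 0.511 to 0.579 and did not pass (log2 0.73, SE 0.33, adjusted p = 0.209 in edgeR).

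The change after testosterone minus the change on it was tested as an interaction. It passed for 3 of the 33 genes, each with the larger effect after testosterone, where 2.93% of all genes tested passed in that direction. The treatment comparisons differ in age, in cohort and in time since testosterone, and these cannot be told apart. Ptprc differed by 1.31 (log2, SE 0.21, adjusted p = 0.00203 in edgeR), and this held without any 1 of the 16 libraries. Il7r differed by 1.48 (SE 0.37, adjusted p = 0.0345 in edgeR) and Trbc2 by 0.97 (SE 0.25, adjusted p = 0.0461 in edgeR). Both of the latter depended on which libraries were in the fit. Il7r stayed under the threshold only where the library left out was Control OT 2 or 4, On T 2, Control PT 3, or Post T 1 or 4, and its edgeR adjusted p reached 0.0897. Trbc2 did so only for On T 2 or 4, Control PT 1 or Post T 4, and reached 0.1, and its call was also lost with median-of-ratios size factors (0.0543) and with no filter (0.115). Trac (log2 1.23, SE 0.35, adjusted p = 0.0709 in edgeR) and Cd5 (log2 1.91, SE 0.57, adjusted p = 0.0883 in edgeR) did not pass. The Cd5 difference passed with limma on log2(TPM + 1) (adjusted p = 0.0109, and 0.0204 with no filter) and on log2(TPM + 0.1) (0.0387). Trac passed without On T library 2 (adjusted p = 0.0311), Cd28 without Control PT library 2 (0.0329) and Cd4 without Control PT library 3 (0.0341). By DESeq2 Trac (adjusted p = 0.0405) and Cd28 (0.0385) also passed, and by limma on log2(TPM + 1) Cd4 did (0.0377). For Cd3d, Cd3e and Cd3g the difference was 0.92, 0.87 and 0.78 and did not pass, so that a larger effect after testosterone was not shown for the CD3 chains.

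None of the 3 B-cell genes passed in either treatment comparison by edgeR, DESeq2 or limma, and 1, Cd79a after testosterone, had an unadjusted p under 0.05. Cd79a was at 0.467, 0.357, 0.306 and 0.384 CPM in Post T and 0.585, 0.562, 0.415 and 1.03 in Control PT (log2 -0.78, SE 0.36, adjusted p = 0.202 in edgeR). Those ranges overlap. Its partner Cd79b was at 0.684 to 1.20 CPM against 0.444 to 0.934 (log2 0.25, SE 0.28, 95% interval -0.30 to 0.81). Ms4a1, the surface protein CD20, was at 0.543 to 0.639 CPM against 0.375 to 0.664 (log2 0.34, SE 0.26, 95% interval -0.17 to 0.84). On testosterone the 3 estimates were -0.09 for Ms4a1, -0.18 for Cd79a and -0.32 for Cd79b. Per Cd3e count there were 0.127 to 0.215 Cd79a counts in Post T and 0.333 to 1.45 in Control PT, with no overlap, and no test was made of such ratios. The summed TPM of the 3 genes was 1.51 to 2.45 in Post T and 1.31 to 2.87 in Control PT.

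For Igkc and Jchain, 2 of the 3 antibody genes, the largest difference lay between the control groups, not between treated mice and controls. Igkc (chromosome 6, 70726435 to 70726966) was at 13.4, 11.0, 10.7 and 12.1 CPM in the older controls and at 3.91, 2.04, 3.88 and 4.37 in the younger ones. All 4 older libraries were above all 4 younger ones (log2 1.73, SE 0.31), but edgeR called 0 genes of the whole table in this comparison and Igkc had an edgeR adjusted p of 0.104. DESeq2 gave 2.35e-05. Jchain was at 11.5, 9.03, 5.92 and 8.83 CPM against 3.26, 1.12, 2.02 and 2.90 (log2 1.91, SE 0.36, edgeR adjusted p = 0.115, and 0.00012 by DESeq2). Ighm, the constant gene of IgM, was at 2.46 to 5.63 CPM against 3.53 to 5.11 (log2 0.03, SE 0.23, 95% interval -0.42 to 0.48). Igha, the constant gene of IgA, named after its values were seen, was at 19.3 to 28.9 CPM against 4.58 to 11.8 (log2 1.54, SE 0.36, adjusted p = 0.188 in edgeR). There were 2.15 to 4.36 Igkc counts per Ighm count in Control PT and 0.577 to 0.954 in Control OT. The control groups differ in age and in cohort, which cannot be told apart.

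Over the 33 genes, 0 passed between older and younger controls by edgeR, where 0% of all genes tested passed, and 0 passed by limma. DESeq2 called 4, all higher in the older controls (Il7r, Cd28, Igkc and Jchain), and 10 were higher and 1 lower at an unadjusted p under 0.05. In 5 (those 4 and Il2ra) every older control was above every younger one, where 3.28% of all genes tested showed this, and in 0 below, where 2.61% did. Il7r was at 3.66 to 8.44 CPM in the older and 1.59 to 2.98 in the younger controls (log2 1.32, SE 0.27, adjusted p = 0.13 in edgeR). This comparison uses the same control libraries as the treatment comparisons, so a high or low control counts in both.

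Against their own controls the antibody genes did not pass in either treatment comparison. Igkc was at 1.73, 2.10, 1.19 and 1.91 CPM on testosterone against 3.91, 2.04, 3.88 and 4.37, an overlap of 1 library (log2 -1.04, SE 0.32, adjusted p = 0.0503 in edgeR). DESeq2 gave 0.0131, edgeR with no filter gave 0.0438, and without Control OT library 2 the edgeR adjusted p was 0.0282 (log2 -1.22). After testosterone Igkc was at 11.6, 3.15, 8.12 and 6.59 CPM, a wide spread, against 10.7 to 13.4 (log2 -0.68, SE 0.30, adjusted p = 0.175 in edgeR). Without Post T library 1, the highest, it passed as lower (log2 -0.96, adjusted p = 0.0492 in edgeR). Jchain followed the same order of libraries in Post T, at 9.05, 2.26, 6.42 and 5.12 CPM, and did not pass (log2 -0.62, SE 0.35, adjusted p = 0.321 in edgeR). Ighm was at 3.93 to 5.09 CPM in Post T (log2 -0.02, SE 0.23, 95% interval -0.46 to 0.43).

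The antibody variable segments lay in the same order as the light chain. The 160 kappa V segments summed to 4.28 to 5.98 CPM in Control PT, 1.72 to 6.61 in Post T, 0.747 to 2.11 in Control OT and 0.609 to 0.852 in On T. The 185 heavy-chain V segments summed to 1.48 to 2.37, 1.16 to 3.47, 0.475 to 1.13 and 0.164 to 0.520 CPM. In both families all older controls were above all younger controls and all On T libraries. V segments are short and alike, so reads can be split among them, and only sums are given.

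**Figure D5:**
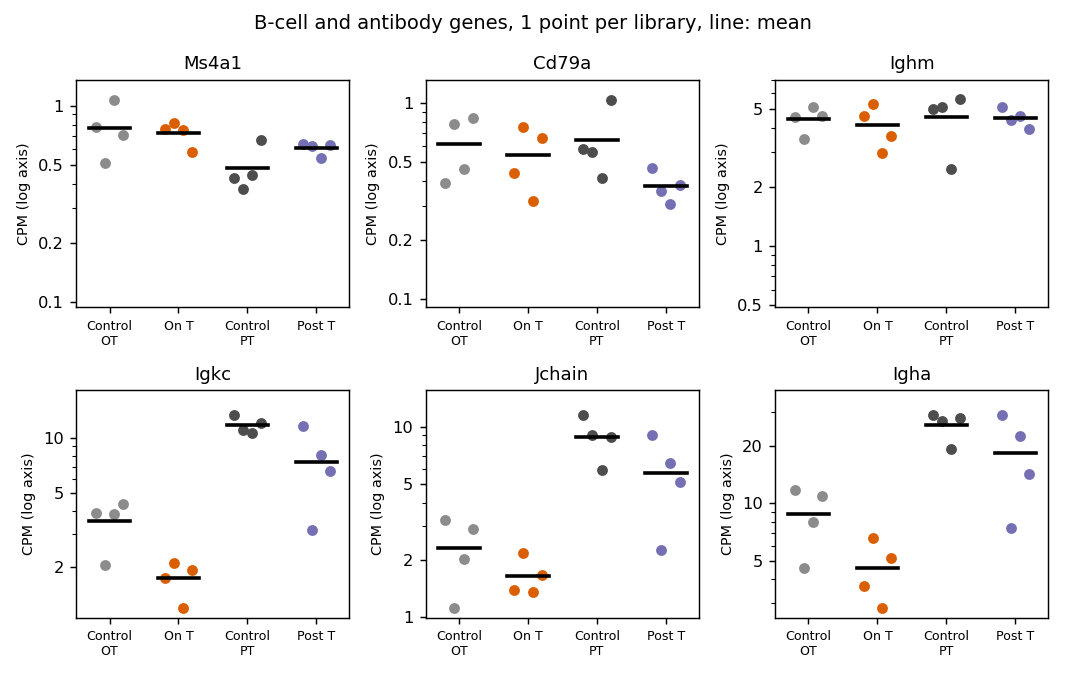
CPM on a log axis of B-cell genes (Ms4a1, Cd79a) and antibody genes (Ighm, Igkc, Jchain, Igha) in each library, by group (4 libraries per group, line at the mean). Igkc, Jchain and Igha are higher in all 4 Control PT libraries than in all 4 Control OT libraries and spread widely in Post T, whereas Ighm lies between 2.46 and 5.63 in every group.

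Of the 8 NK and cytotoxic genes, 1 rose after testosterone and 0 on it, where 7.49% and 4.24% of all genes tested rose. The count is thus near that of all genes. The median log2 fold change of the 8 was 0.62 after testosterone and 0.56 on it, beside -0.01 over all genes. In each comparison 7 of the 8 estimates were positive. Nkg7, a granule membrane protein of NK and killer T cells, was at 1.70, 1.69, 1.43 and 0.880 CPM in Post T and 0.701, 0.906, 0.740 and 0.615 in Control PT. The ranges overlapped by 1 library (log2 0.94, SE 0.27, adjusted p = 0.0274 in edgeR). The call was lost without any 1 of Post T libraries 1, 2 and 3 or Control PT libraries 1, 3 and 4, with an edgeR adjusted p up to 0.0924. The NK receptor genes Ncr1 (0.238 to 0.492 CPM against 0.148 to 0.326), Klrb1c (0.985 to 1.43 against 0.874 to 1.45) and Klrd1 (0.587 to 1.02 against 0.312 to 0.740) overlapped. Of the exon bases of Klrb1c, 13.9% are shared with Gm44511 on the same strand, so its count is uncertain. Tbx21, the transcription factor T-bet, was at 0.609 to 1.10 CPM against 0.312 to 0.713 (log2 0.65, SE 0.32, adjusted p = 0.24 in edgeR). The granule genes Gzma (log2 0.60, SE 0.47), Gzmb (log2 -0.32, SE 0.40) and Prf1 (log2 0.15, SE 0.31) held 5 to 23 counts in a library of either group. On testosterone, Ncr1 had the highest estimate of the 8, at 8 to 30 counts against 4 to 10 (log2 1.11, SE 0.41, adjusted p = 0.111 in edgeR). It passed without Control OT library 2 (log2 1.53, adjusted p = 0.0434 in edgeR). The summed TPM of the 8 genes was 6.22 to 8.88 in Post T, 5.04 to 5.66 in Control PT, 3.74 to 6.05 in On T and 2.84 to 4.88 in Control OT.

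Other genes of these pathways, listed by role, gave a wider view. Both these lists and the 36 genes were chosen with earlier results of these data known. Their counts beside those of all genes are therefore descriptions, not independent support. Of 17 tested genes of T-cell receptor signalling, 9 rose and 0 fell after testosterone, and 2 rose and 0 fell on it, where 7.49% and 4.24% of all genes tested rose, with medians of 0.78 and 0.04 beside -0.01 over all genes. Macrophage markers, summing to 4620 to 6380 TPM in Post T and 630 to 1400 in Control PT, rose in the same libraries, and some genes of this list, such as Lcp2, are also known from myeloid cells. The part of the macrophage signal in the results of this and the lists that follow was not tested. Among those that rose after testosterone were the adaptor genes Lcp2 (log2 1.09), Lat (2.02) and Skap1 (1.32). Lat, the membrane adaptor that Zap70 phosphorylates, was at 3.69, 3.98, 4.79 and 3.07 CPM in Post T and 1.29, 0.968, 0.888 and 0.713 in Control PT. On testosterone Skap1 (log2 0.74, SE 0.20) and Prkcq, the kinase PKC-theta (log2 0.62, SE 0.19), rose, with edgeR adjusted p of 0.0295 and 0.0459.

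Among 20 genes of T-cell fate and checkpoints, 7 rose and 2 fell after testosterone, and 2 rose and 2 fell on it, with medians of 0.37 and 0.07. Over all genes tested, 7.49% rose and 4.81% fell after testosterone, and 4.24% rose and 5.03% fell on it. The 2 of the list that fell were the inhibitory receptors Pdcd1 (PD-1) and Tigit, in both comparisons. Pdcd1 was at 5.27, 4.17, 5.44 and 5.29 CPM in Control OT and 0.952, 0.426, 0.694 and 0.607 in On T (log2 -2.88, SE 0.26, adjusted p = 2.49e-06 in edgeR). It was at 4.25, 4.68, 6.04 and 3.17 CPM in Control PT and 1.18, 1.90, 1.09 and 1.38 in Post T (log2 -1.71, SE 0.24, adjusted p = 0.000104 in edgeR). In both comparisons every treated library was below every control. Tigit held 11 to 85 counts in a Control OT library and 0 to 8 in On T, and 4 to 41 in Control PT and 2 to 3 in Post T (edgeR adjusted p = 0.00576 and 0.0449). Its counts after testosterone are at the floor of 3, so no fold is given. Luteal markers also fell in these libraries, from 3840 to 4610 TPM in Control OT to 471 to 1740 in On T and from 3030 to 5320 in Control PT to 1050 to 2470 in Post T, and their part in the Pdcd1 and Tigit results was not tested. The risers with the smallest p after testosterone were Havcr2 (log2 1.65), a checkpoint receptor that macrophages also carry, Ikzf1 (1.14), a lymphoid transcription factor, and Cxcr6 (1.40), a homing receptor. On testosterone Ikzf3 (log2 0.91, adjusted p = 0.033 in edgeR), also a lymphoid transcription factor, rose.

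Of 18 further B and plasma cell genes tested, 5 rose and 2 fell after testosterone, and 2 rose and 1 fell on it, with medians of 0.19 and -0.15. The shares of all genes tested that rose and fell were 7.49% and 4.81% after testosterone, and 4.24% and 5.03% on it. Cd37, a tetraspanin of B cells and other leukocytes, was at 13.7 to 22.9 CPM in Post T and 2.78 to 3.76 in Control PT (log2 2.51, SE 0.18, adjusted p = 1.83e-07 in edgeR). Blnk, a B-cell adaptor also found in macrophages (log2 1.75), and Cd22, a sialic acid binding lectin (2.18), rose with it. Macrophage markers rose in the same libraries, as given above, and their part in these results was not tested. On testosterone Cd37 and Cd22 rose by 1.01 each on the log2 scale, with edgeR adjusted p of 0.00205 and 0.016. Sdc1, a plasma cell marker that many epithelia express, fell both on testosterone (log2 -1.44) and after it (-0.99). The other gene that fell after testosterone, Ighg3 of IgG3, held 62, 6, 194 and 27 counts in Control PT and 10, 6, 7 and 10 in Post T, so that the call rests on the high controls (log2 -3.32, SE 0.76, adjusted p = 0.00678 in edgeR).

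Of 15 further NK and cytotoxic genes tested, 9 rose and 0 fell after testosterone, and 1 rose and 0 fell on it, with medians of 0.88 and 0.47. Among all genes tested, 7.49% rose and 4.81% fell after testosterone, and 4.24% rose and 5.03% fell on it, so the count of risers on testosterone is near that of all genes. Of the 13 macrophage markers, 9 rose in the same Post T libraries. The smallest p after testosterone were those of Sh2d1b1, an adaptor of NK cells (log2 1.69), the chemokine Ccl5 (1.55), Hcst, the adaptor DAP10 (1.83), and Il18r1, an interleukin-18 receptor chain (1.12), with edgeR adjusted p from 0.000364 to 0.0131. Ccl5 was at 1.90 to 2.73 CPM in Post T and 0.681 to 0.885 in Control PT. Sh2d1b1 was also the riser on testosterone (log2 1.38, SE 0.30, adjusted p = 0.00713 in edgeR).

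Ligands and counter-receptors, which other cells of the tissue present to lymphocytes, came to 17 tested, of which 9 rose and 0 fell after testosterone and 3 rose and 0 fell on it, with medians of 0.77 and 0.26, where 7.49% and 4.24% of all genes tested rose. Of 13 macrophage markers, 9 rose and 1 fell in these libraries after testosterone, and 5 rose and 1 fell on it. Cd274 (PD-L1), the ligand of Pdcd1, was at 13.3, 16.5, 15.2 and 10.0 CPM in Post T and 2.07, 3.19, 3.47 and 2.68 in Control PT (log2 2.27, SE 0.20, adjusted p = 7.09e-07 in edgeR). It moved in the opposite direction to its receptor in both comparisons (log2 0.72 on testosterone, adjusted p = 0.0284 in edgeR). Icosl, the ligand of Icos, rose after (log2 0.64) and on testosterone (0.76), as did the lymphoid chemokine Ccl21a (0.97 and 1.13). Ccl21a has near-identical copies in the genome, so its count is uncertain. Cd48 (log2 1.47), a ligand of NK and T-cell receptors, and Tnfsf13 (1.66), a plasma cell survival factor, rose after testosterone. Il7, the ligand of Il7r, was at 2.14 to 3.27 CPM in Post T and 1.83 to 3.79 in Control PT, and did not pass (log2 -0.02, SE 0.24, adjusted p = 0.976 in edgeR).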

How the data were processed

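RNA of 16 ovaries was measured as poly(A) libraries made with a directional kit, per the labels' protocols. The submitters' processing notes list, in no order, RSEM 1.3.3, STAR 2.7.8a, FastQC 0.11.8, cutadapt 2.3 and GRCm38. The expected counts deposited by the authors are not normalized and held whole numbers. The deposited TPM values are scaled by the authors for gene length and library size. FPKM values were not used. Which annotation was counted, and whether strand was used, is not given in the sources used here.

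Expected counts entered 1 fit of all libraries in edgeR 4.0.16 (R 4.3.3). It used filterByExpr with a minimum count of 10 (18833 of 55426 genes kept), TMM scaling, a mean per group, its quasi-likelihood test, and p-values adjusted by Benjamini-Hochberg over all genes tested, at 0.05. The 4 contrasts were On T minus Control OT, Post T minus Control PT, the second of these minus the first, and Control PT minus Control OT. SE is the log2 fold change divided by the square root of F, and 95% intervals are normal. Totals of 26598055 to 52659637 put 3 counts, taken as the floor, at 0.0571 to 0.117 CPM. Ratios, sums and V segments are descriptions with no test. Gene positions and exon overlaps came from GENCODE vM21 (GRCm38), in which all 36 identifiers were found.

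The members and the lists were chosen with earlier results of these data known. All members are given. From each further list up to 4 genes with the smallest p among those that passed are named per treatment comparison, and some of these are not reported here. Alternatives were DESeq2 1.42.0, limma 3.58.1 on log2(TPM + 1) or log2(TPM + 0.1), size factors by median of ratios, a stricter filter (1 CPM in 4 libraries) or none, fewer libraries in the fit, a replicate block, age as a covariate, and leaving out libraries. The pipeline was tested on simulated data. No 2 libraries of a group agreed within sampling noise.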

Additional observations from a re-analysis of the deposited data

Results flagged for a closer look

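For 3 members the effects in the treatment comparisons differed by a test of the difference itself. The log2 effect after testosterone exceeded that on testosterone by 1.31 in Ptprc, by 1.48 in Il7r and by 0.97 in Trbc2. With 1 library left out, the difference passed in 16 of 16 fits for Ptprc. It did so in only 6 of 16 for Il7r and 4 of 16 for Trbc2.

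In 4 of 132 gene and group combinations 1 library lay far from the other 3 by Dixon's test, which chance gives in about 1 in 20 groups. Cd3g was at 1.90 CPM in Control OT library 4, above the 0.486 to 0.679 of the others. Trdc was at 1.54 CPM in On T library 1, above 0.636 to 0.786. Klrb1c was at 1.45 CPM in Control PT library 4, above 0.874 to 0.935. Ms4a1 was at 0.543 CPM in Post T library 3, below 0.624 to 0.639.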

How the results depend on the processing

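After testosterone the number of members that passed stayed within 1.5 times of 10 under every alternative run, from 7 to 12. On testosterone it was 2, but 5 by DESeq2 and 1 by limma on log2(TPM + 1) with or without the filter, and 2 to 4 without 1 library. The difference of effects passed for 3, but for 5 by DESeq2 and 5 by limma on log2(TPM + 1), and for 1 to 4 without 1 library. Between the control groups 0 passed, but 3 with no filter and 4 by DESeq2, and 0 without any 1 library. No estimate that passed changed sign under any alternative. Leaving out On T library 2 and Control PT library 1 together gave 2, 11, 4 and 0 in the same order. The causes of these changes were not tested.

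Replicate numbers are shared between groups, and the deviations of same-numbered libraries correlated weakly (-0.06 to 0.15 and 0.09 to 0.28). On T library 2 and Post T libraries 2 and 3 were closest to the control of the same number, and the others were not. Mast cell markers summed highest in library 2 of each group (2.88 TPM in Control OT, 9.05 in On T, 6.48 in Control PT and 5.49 in Post T). Whether same-numbered libraries share more than a number was not tested. With a replicate block the counts were 3 on testosterone, 10 after it, 2 for the difference and 0 between controls, with Zap70 gained (log2 -1.04) and Trbc2 lost from the difference (log2 0.98, edgeR adjusted p = 0.0606). With at least 5 counts in place of 1, T-cell receptor V segments averaged 2.75 in Post T and 0.5 in Control PT. Most members averaged under 100 counts in a library, which limits what could be detected for Cd8b1, Ctla4, Foxp3 and the granzymes.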
